A study of Mus musculus with 32 samples.

Results

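The clustered histone genes encode the linker histone H1 and the core histones H2A, H2B, H3 and H4. All non-control probes whose gene name in the array files begins with Hist1h, Hist2h, Hist3h or Hist4h were taken, which gave 57 probes of 49 genes among the 39429 probes of the array. By type they were 6 H1, 16 H2A, 13 H2B, 8 H3 and 14 H4 probes, and by cluster name 41 Hist1, 11 Hist2, 3 Hist3 and 2 Hist4 probes. The names are those of the array's design, and 52 probes were matched to RefSeq through their accession and 5 through their symbol.

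The RNA came from whole blood of male C57BL/6 mice, drawn by cardiac puncture 24 h after X-rays or sham exposure (0 Gy), 1 array per mouse. In wild type (WT), 5 mice received 8 Gy and 6 received 0 Gy. Of the ATM-/- mice, called Atm below, which lack the kinase that signals DNA double-strand breaks, 6 received 4 Gy and 5 received 0 Gy. Of the Scid mice, whose defect in end joining of DNA breaks leaves few mature B and T cells, 5 received 3 Gy and 5 received 0 Gy. The doses were set by the submitters to be about as lethal in each genotype, and any comparison between responses therefore compares doses as well as genotypes. Every sample was globin-depleted before Cy3 labelling, and the labels give no age.

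Most clustered histone genes are transcribed in S phase, when new DNA is packed into nucleosomes. Their messages end in a short stem-loop, bound by the stem-loop binding protein, in place of a poly(A) tail, and the mature message stops a few bases after the loop. Some of these genes can also give polyadenylated messages, which is known in human for HIST1H2BC and HIST1H1C in differentiating cells. Core histones form the nucleosome, and H1 binds the DNA that enters and leaves it. Labelling kits of the kind used here are known to start from poly(A) tails, so messages that end at the stem-loop may be counted less than tailed ones, and this was not tested.

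The histone stem-loop itself lies in some of the probes, shown here because a probe that runs past it reads sequence beyond the mature end. The 16-base motif searched, in the probe strand, was a GGCNCT stem, a loop of 4 bases of any kind and an AGNGCC stem that pairs with the other stem. It was whole in 6 probes of the array (0.0152%), all of them histone members, and whole or cut by a probe end in 8 (0.0203%), again all members. Of these 8, 5 passed the detection filter described below. The 30-base windows, 5′ to 3′ with the stem-loop in capitals, are at chr13:23843422-23843451 (plus strand) for Hist1h2ab, chr13:23662519-23662548 (minus) for Hist1h2ae, chr3:96043699-96043728 (minus) for Hist2h2aa2, chr13:21874784-21874813 (minus) for Hist1h3i and chr13:21903990-21904019 (plus) for Hist1h4m, in build mm9 as the file headers give it.
Hist1h2ab: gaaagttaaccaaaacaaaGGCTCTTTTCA
Hist1h2ae: CTTTTCAGAGCCattcacttaattcagtaa
Hist2h2aa2: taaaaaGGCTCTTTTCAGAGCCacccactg
Hist1h3i: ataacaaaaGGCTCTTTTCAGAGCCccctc
Hist1h4m: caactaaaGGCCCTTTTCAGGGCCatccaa
The Hist1h2ab probe stops in the second stem, while the Hist1h2ae probe has 48 bases 3′ of the stem-loop and the Hist2h2aa2 probe (A_55_P1962084) has 38.

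The letters of a polyadenylation signal, AATAAA or ATTAAA, were found in 5 of the 57 histone probes (8.77%), against 16.7% of all probes. These windows are printed for Hist3h2ba (chr11:58762994-58763023, plus strand, mm9), the gene with the largest change below, and for Hist1h2be (chr13:23675611-23675640, minus strand, mm9), with the hexamer in capitals. A match is a description of the letters and not a site in use.
Hist3h2ba: gttcataatggtattAATAAAtttggttca
Hist1h2be: gtactgttcattATTAAAgcattcctgatt

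Histone genes of 1 type are near copies of each other, so a probe can read several of them. Of the 57 probes, 16 shared a run of 20 bases with another member (14 of those that passed the filter), and 16 listed several RefSeq transcripts. The H2A probes that cover the end of the coding sequence and share such a run are printed here, with the longest run shared with another of these probes in capitals and the stop codon at the 3′ end. They lie in mm9 at chr13:23626113-23626172 (plus) for Hist1h2af, chr13:22127035-22127094 (minus) for Hist1h2ah, chr13:21845304-21845363 (minus) for Hist1h2ak, chr13:21878695-21878754 (minus) for Hist1h2an, chr3:96043781-96043840 (minus) for Hist2h2aa2 and chr3:96024378-96024437 (minus) for Hist2h2ac. The Hist1h2al probe also ends at a stop codon but shared no run of 20 bases with another member, and is not shown.
Hist1h2af: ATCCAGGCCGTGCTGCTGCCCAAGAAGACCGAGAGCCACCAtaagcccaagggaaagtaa
Hist1h2ah: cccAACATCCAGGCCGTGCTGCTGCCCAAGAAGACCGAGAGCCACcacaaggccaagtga
Hist1h2ak: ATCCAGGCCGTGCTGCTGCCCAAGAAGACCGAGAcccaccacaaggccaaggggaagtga
Hist1h2an: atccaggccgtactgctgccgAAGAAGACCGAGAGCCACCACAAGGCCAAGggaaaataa
Hist2h2aa2: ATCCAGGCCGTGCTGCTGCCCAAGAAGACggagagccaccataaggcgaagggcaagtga
Hist2h2ac: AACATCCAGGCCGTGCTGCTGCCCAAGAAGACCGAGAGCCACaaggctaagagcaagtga
With such shared runs the values of these probes may include messages of other H2A genes, which was not tested. The 2 called H3 probes also share a run, and are printed from the start codon with their first 35 coding bases, which are the same, in capitals, at chr13:23837328-23837366 (minus) for Hist1h3c and chr13:23636354-23636389 (plus) for Hist1h3f in mm9.
Hist1h3c: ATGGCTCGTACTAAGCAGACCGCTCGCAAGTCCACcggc
Hist1h3f: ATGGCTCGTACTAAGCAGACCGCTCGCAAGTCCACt

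A level below is the log2 processed signal of a probe minus the 75th percentile of its array, so a negative level lies under that percentile. A change is the difference of group means on this scale, with its standard error (SE) from limma, and was called at an adjusted p under 0.05. The share of probes well above background was 45.7 to 58.6% per array in WT 8 Gy mice and 28.02 to 53.3% in WT 0 Gy mice. It was 20.02 to 48.1% in Atm 4 Gy, 36.6 to 43.4% in Atm 0 Gy, 32.5 to 43.2% in Scid 3 Gy and 25.0 to 47.7% in Scid 0 Gy mice. The number of arrays limits the precision, and in whole blood fewer cells of a type and less RNA per cell cannot be told apart.

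Some libraries stood apart before any comparison. Of the lymphocyte markers Cd79b (B cell receptor), Ms4a1 (CD20) and Cd3d (T cell receptor complex), the library labelled Scid 0 Gy replicate 4 had levels of 5.41, 3.68 and 3.27. The other Scid 0 Gy arrays had -3.37 to -2.25, -4.09 to -2.09 and -3.66 to -1.65. The Scid 3 Gy group had -3.65 to -0.008, -4.29 to -2.94 and -3.74 to 0.60. The libraries labelled WT 0 Gy replicates 3 and 6 had levels of -2.38, -3.25 and -1.91 and of -2.81, -2.71 and -2.01. The other WT 0 Gy arrays had 4.03 to 6.37, 0.59 to 4.72 and 2.68 to 3.66. The libraries labelled Scid 0 Gy replicate 4 and WT 0 Gy replicates 3 and 6 thus go against their labels in these markers. Each main result is also given without these 3. WT 8 Gy replicate 3, not among the 3, was low in Cd79b (-0.57) and Ms4a1 (-2.79) but had a Cd3d level of 2.99. The mean level of the liver genes measured was 5.96 to 6.59 in WT 8 Gy replicates 1 and 2, WT 0 Gy replicate 5 and Atm 4 Gy replicate 3, and at most 4.32 on any other array. The probes of Atm and of Prkdc, the gene mutated in Scid, were not kept in any group and give no check of the labels.

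Of the 57 histone probes, 45 probes of 40 genes passed the detection filter (well above background on 4 or more arrays of any group): 3 of 6 H1, 15 of 16 H2A, 9 of 13 H2B, 6 of 8 H3 and 12 of 14 H4 probes. On all 32 arrays 31 of them were well above background. The 12 others were the H1 probes of Hist1h1a (well above background on 14 arrays), Hist1h1d (1 array) and Hist1h1t (5 arrays), the last a linker gene known from testis, and probes of Hist1h2bq, Hist1h3a, Hist1h3g, Hist2h2ab, Hist2h2bb, Hist2h4, Hist3h2bb-ps and Hist4h4. Hist4h4 and Hist2h4 each also had a kept probe.

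Irradiated wild-type blood had lower signal for 7 of 45 clustered histone probes and higher signal for none. The 7 were Hist3h2ba and Hist1h2bp (H2B), Hist1h2ab and Hist1h2ae (H2A), Hist1h3c and Hist1h3f (H3) and Hist1h1b (H1), with changes of -2.94 to -1.19. No H4 probe passed the test. Over all 18368 probes tested 7.39% were called and 6.25% were called lower, against 15.6% of the histone probes. Both groups were apart, every WT 8 Gy array below every WT 0 Gy array, for 2 histone probes, and 3.92% of all probes were apart in that direction.

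**Figure D1:**
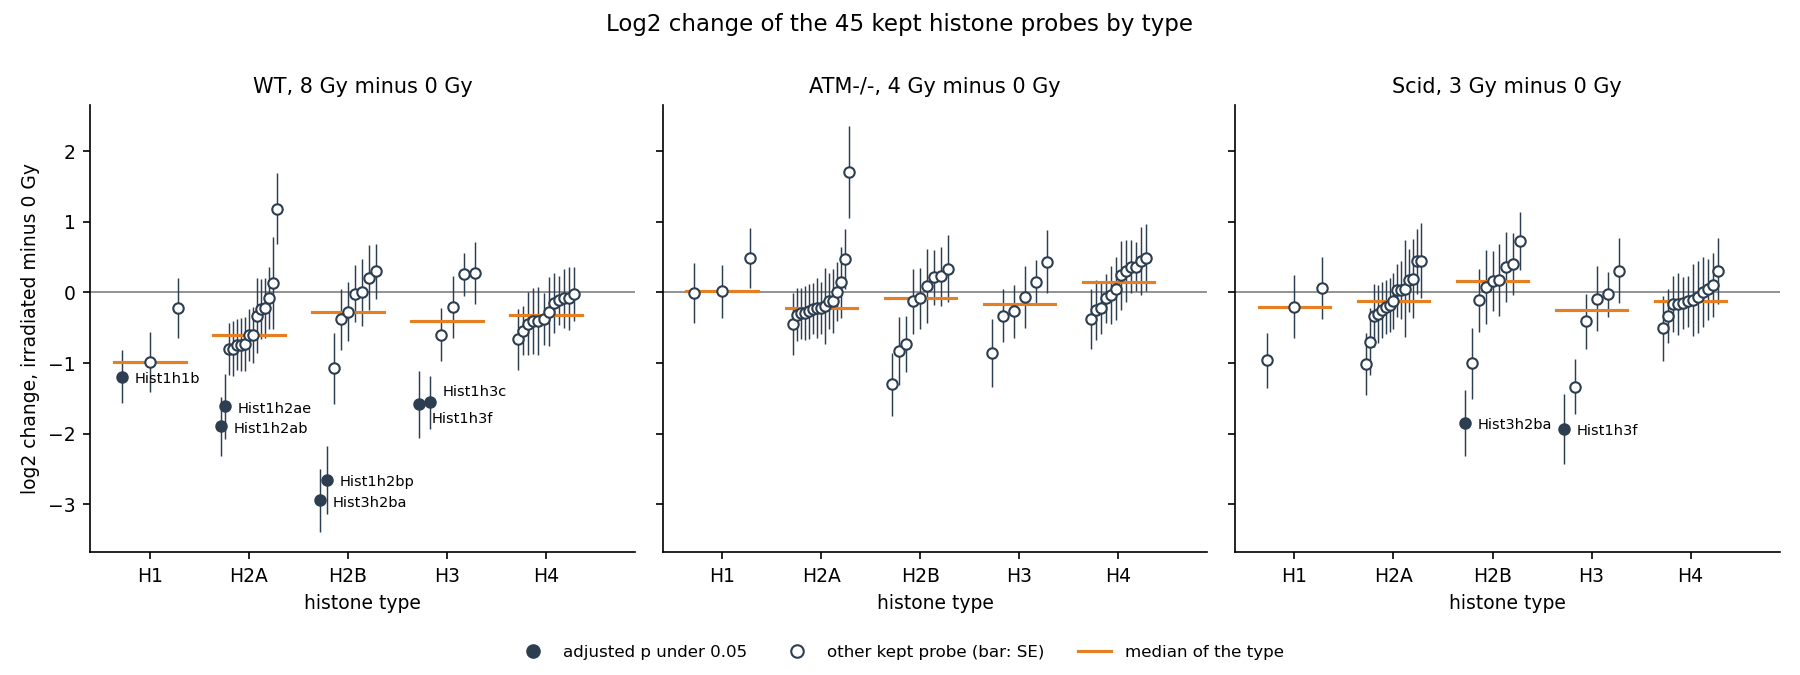
Log2 change (vertical axis, irradiated minus 0 Gy, log2 units) of each of the 45 kept histone probes by type (horizontal axis) in WT, Atm and Scid mice, with bars for the SE, filled points for an adjusted p under 0.05 and a line for the type's median. The filled points are the 7 lower probes of WT, from -2.94 for Hist3h2ba to -1.19 for Hist1h1b, and the 2 of Scid, and no H4 probe is filled.

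Among the H2B genes the largest change was that of Hist3h2ba (current symbol H2bu2), a core H2B gene outside the main cluster. Its levels were -0.07, -0.45, -0.39, 0.12 and 0.72 in WT 8 Gy mice, against a lowest of 1.76, a median of 3.22 and a highest of 4.03 in WT 0 Gy mice. Every irradiated array lay below every sham array. The change was -2.94 (SE 0.449, a 7.70-fold lower signal, limma adjusted p = 2.8e-05). Hist1h2bp, a cluster 1 H2B gene, had levels of -1.26, -2.06, -0.40, -0.26 and 0.37 in WT 8 Gy mice, against a lowest of 0.29, a median of 2.25 and a highest of 2.83 in WT 0 Gy mice. Only 1 irradiated array reached above the lowest sham array. Its change was -2.65 (SE 0.480, 6.29-fold lower, limma adjusted p = 0.00027).

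The other 7 H2B probes did not pass the test. Hist1h2bc, whose human namesake is known for polyadenylated messages, had levels of 7.86, 7.35, 8.60, 8.17 and 8.92 in WT 8 Gy mice, against a lowest of 7.08, a median of 8.53 and a highest of 9.61 in WT 0 Gy mice. The groups overlapped over almost their whole range, with a change of -0.27 (SE 0.419, limma adjusted p = 0.741). Hist1h2be, whose probe holds the ATTAAA printed above, differed by 0.30 (adjusted p = 0.697, limma), and Hist1h2ba, known as the testis H2B gene, averaged 6.35 ± 0.44 in WT 8 Gy mice and 6.36 ± 0.93 in WT 0 Gy mice (SD, n = 5 and 6). Hist1h2bm differed by 0.21 and Hist2h2be, well above background on 13 of 32 arrays, by -0.38. The H2B probes thus held both the largest histone change and 3 probes with a mean above that of the sham group.

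Among the H2A genes, Hist1h2ab had levels of 0.24, -1.35, -1.29, 0.25 and 0.13 in WT 8 Gy mice, against a lowest of 0.43, a median of 1.49 and a highest of 2.17 in WT 0 Gy mice. All irradiated arrays lay below all sham arrays. The change was -1.90 (SE 0.422, 3.72-fold lower, limma adjusted p = 0.00306). Hist1h2ae had levels of -1.59, -1.98, -1.18, -1.38 and -0.71 in WT 8 Gy mice, against a lowest of -1.42, a median of 0.29 and a highest of 1.31 in WT 0 Gy mice. The lowest sham array, WT 0 Gy replicate 5, lay among the irradiated ones, and the change was -1.61 (SE 0.457, 3.06-fold lower, limma adjusted p = 0.0243). Both of these probes contain part of the stem-loop printed above. Of the 5 kept probes with a whole or cut stem-loop these 2 were called, with a median of -0.21 over the 5 and of -0.39 over the other 40. The 40 lack the motif within their own bases and may lie on either side of it. These 2 medians therefore do not compare probes past the stem-loop with probes before it.

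The 8 H2A probes that share 20 bases with another member had changes of -0.80 to -0.08, all lower, with a median of -0.74 and none called (smallest adjusted p = 0.210, limma). Hist1h2ah, one of those printed, had levels of 7.16, 6.86, 8.05, 7.68 and 8.07 in WT 8 Gy mice, against a lowest of 7.05, a median of 8.40 and a highest of 9.25 in WT 0 Gy mice. The groups overlapped, and the change was -0.74 (limma adjusted p = 0.242). Hist2h2aa2 has a probe at the coding end with a change of -0.60 and a probe past the stem-loop with a change of -0.08, neither called. Hist3h2a, a neighbour in name of Hist3h2ba, went the other way: 2.89, 2.04, 2.93, 3.18 and 3.49 in WT 8 Gy mice, against a lowest of 0.08, a median of 1.81 and a highest of 3.16 in WT 0 Gy mice. Its difference of 1.18 (SE 0.504, unadjusted p = 0.0252 and adjusted p = 0.164, limma) did not pass the test.

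Among the H3 genes, Hist1h3c had levels of 2.43, 2.48, 3.27, 3.27 and 3.48 in WT 8 Gy mice, against a lowest of 3.21, a median of 4.63 and a highest of 5.65 in WT 0 Gy mice. The irradiated arrays overlapped with the lowest sham array, WT 0 Gy replicate 5, and lay below the other sham arrays. The change was -1.56 (SE 0.373, 2.94-fold lower, limma adjusted p = 0.00605). Hist1h3f had levels of 0.02, -0.28, 0.44, 0.46 and 0.97 in WT 8 Gy mice, against a lowest of 0.16, a median of 1.97 and a highest of 3.27 in WT 0 Gy mice. Again WT 0 Gy replicate 5 was the sham array among the irradiated ones, and the change was -1.59 (SE 0.476, 3.00-fold lower, limma adjusted p = 0.0357). Hist1h3d averaged 3.99 ± 0.33 in WT 8 Gy mice and 3.73 ± 0.42 in WT 0 Gy mice (SD, n = 5 and 6), and the other H3 probes, of Hist1h3i, Hist2h3b and Hist2h3c2, were not called either.

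Of the linker genes, Hist1h1b (H1.5, current symbol H1f5) had levels of -2.35, -3.51, -2.66, -1.40 and -1.52 in WT 8 Gy mice, against a lowest of -2.13, a median of -0.95 and a highest of -0.58 in WT 0 Gy mice. The irradiated arrays were lower apart from an overlap with 1 sham array, and the change was -1.19 (SE 0.372, 2.28-fold lower, limma adjusted p = 0.0449). Hist1h1c averaged 6.44 ± 0.85 in WT 8 Gy mice and 6.66 ± 0.83 in WT 0 Gy mice (SD, n = 5 and 6, change -0.22, limma adjusted p = 0.798). Hist1h1e averaged 0.05 ± 0.60 and 1.04 ± 0.52 in the same groups (change -0.98, unadjusted p = 0.0277, adjusted p = 0.173, limma) and did not pass the test.

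The 12 H4 probes had changes of -0.66 to -0.02, all below 0, and none was called (smallest adjusted p = 0.397, limma). One of the 3 Hist1h4i probes (A_51_P505521) had levels of 5.11, 4.40, 5.69, 5.38 and 6.12 in WT 8 Gy mice, against a lowest of 3.86 and a highest of 7.21 in WT 0 Gy mice. The irradiated values lay inside the range of the sham values, and all 3 probes of the gene differed by -0.44 to -0.27. Hist1h4k (A_55_P2091145) averaged 5.11 ± 0.51 in WT 8 Gy mice and 5.49 ± 0.80 in WT 0 Gy mice, and Hist2h4 4.81 ± 0.55 and 4.83 ± 0.64 (SD, n = 5 and 6).

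**Figure D2:**
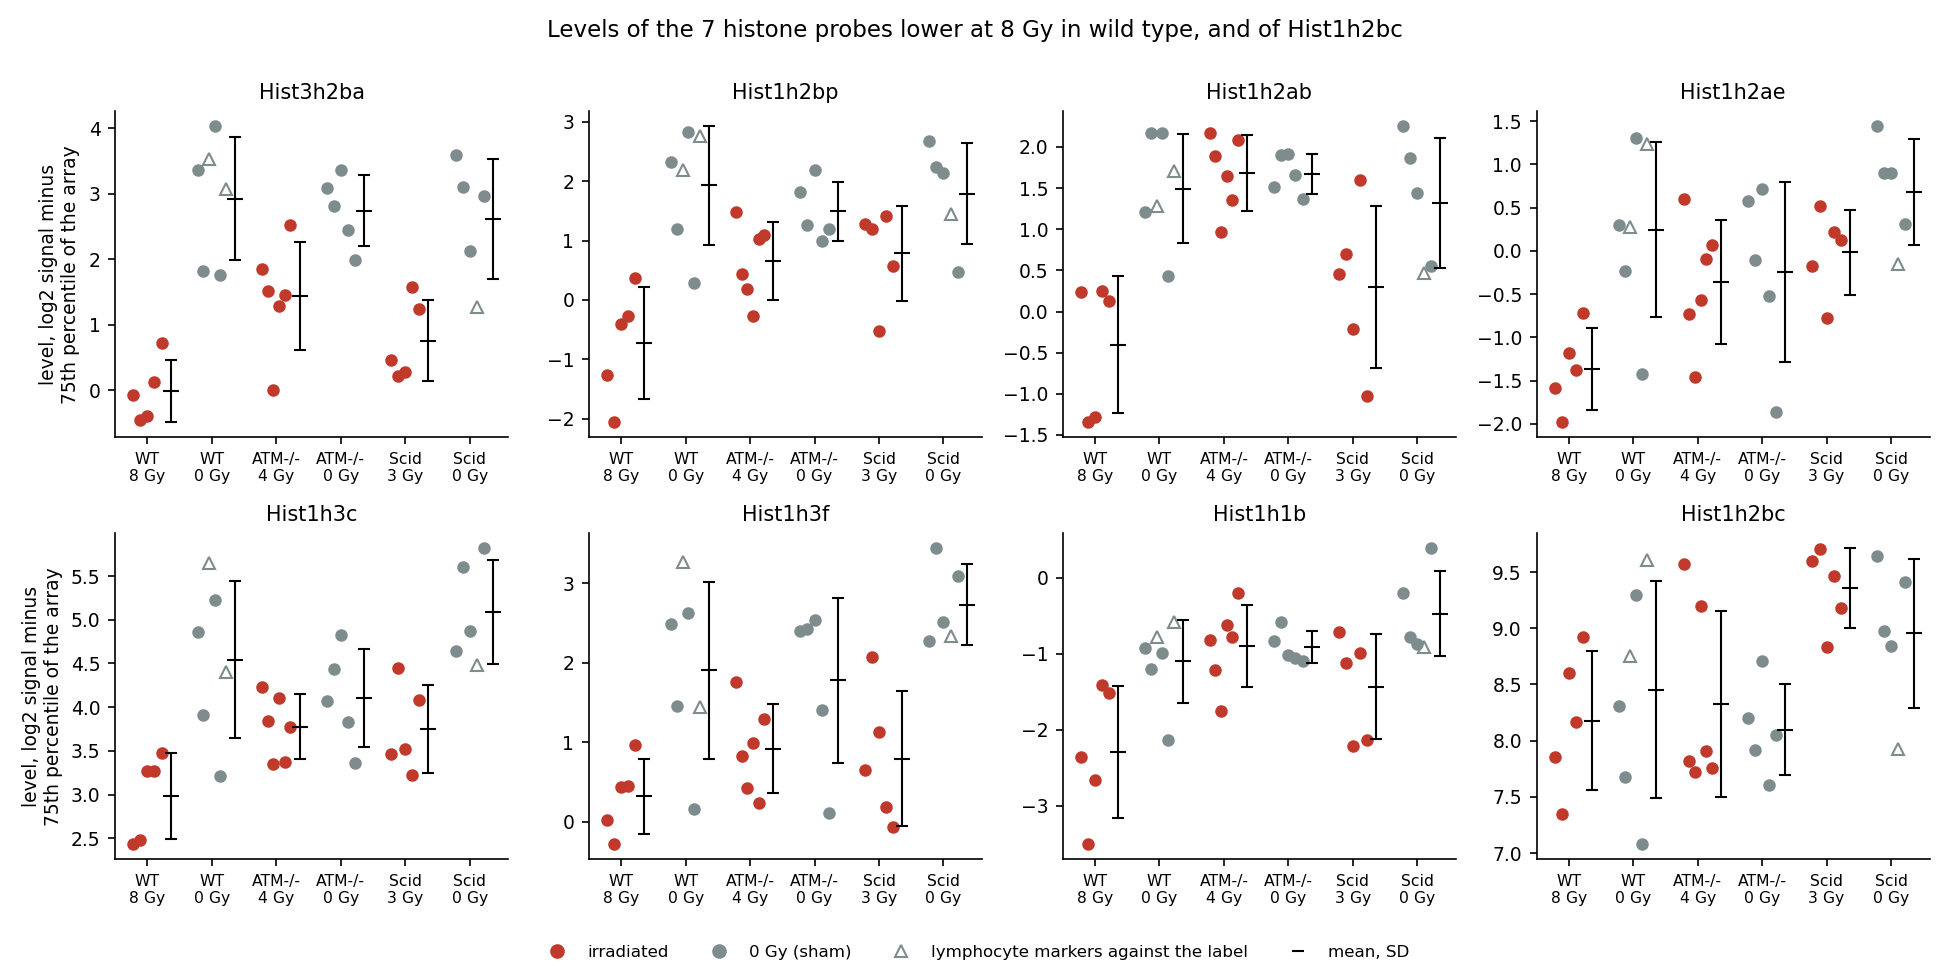
Level (vertical axis, log2 signal minus the array's 75th percentile) of the 7 histone probes lower at 8 Gy in WT, and of Hist1h2bc, on each array of the 6 groups (horizontal axis). Points are mice, marks the mean and SD, and triangles the 3 libraries whose lymphocyte markers go against their labels. In the Hist3h2ba panel the WT 8 Gy arrays, at -0.45 to 0.72, lie below all WT 0 Gy arrays, while in the Hist1h2bc panel the 2 groups overlap.

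Over all 45 probes the WT median was -0.38, against -0.00035 over all probes, and 38 had a lower mean at 8 Gy, against 50% of all probes. The histone median was above 0 under 5 of 29 other settings. These were normexp (0.56), quantile normalization (0.02), a percentile of probes detected on all arrays (0.05), the series matrix (0.10) and spike-in scaling (0.90). The median of all probes was 0.14 with quantile normalization and 0.39 with the series matrix, above the histone median in both. It is not given here for normexp or for the percentile of probes detected on all arrays. Spike-in scaling moved the median of all probes by 1.28, put 39 of the 45 histone probes above 0 and called 2 lower and 8 higher, with Hist1h1b at 0.09. With normexp 2 histone probes were called and with scaling to the array median 3, all lower. At an unadjusted p under 0.05, 10 histone probes were lower and 1 higher, against 14.7% of all probes lower and 6.18% higher. By type the medians were -0.98 for H1, -0.60 for H2A, -0.27 for H2B, -0.40 for H3 and -0.32 for H4. Of the 6 erythroid markers measured 5 were called lower, against 6.25% of all probes, with a median of -4.64 over the 6. Their mean was 0.24 to 1.93 in WT 8 Gy mice and 3.67 to 5.92 in WT 0 Gy mice, groups that do not overlap. Their part in the histone result was not tested.

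Without the 3 libraries that go against their labels, 3 of the 45 histone probes were called lower, against 4.1% of all probes. They were Hist3h2ba (-2.76, adjusted p = 0.000414), Hist1h2bp (-2.38, adjusted p = 0.00605) and Hist1h2ab (-1.90, adjusted p = 0.0140), all by limma. Hist1h3c (-1.31, adjusted p = 0.0508), Hist1h3f (-1.36, 0.154), Hist1h2ae (-1.36, 0.138) and Hist1h1b (-0.98, 0.220) no longer passed. The median of all 45 was -0.06 with 21 positive, against a median of -0.04 and 47.7% positive over all probes. With the 4 liver-bright arrays left out too, again 3 were called, against 3.52% of all probes, and these were Hist3h2ba (-2.92), Hist1h2ab (-2.15) and Hist1h2bp (-2.21). Without the liver-bright arrays alone, Hist1h3f (adjusted p = 0.0736) and Hist1h1b (adjusted p = 0.169) were lost.

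Leaving out each array in turn, Hist3h2ba, Hist1h2bp, Hist1h2ab and Hist1h3c passed in 11 of 11 omissions. Hist1h2ae passed in 7 and lost its call without any of WT 8 Gy replicates 1 and 2 or WT 0 Gy replicates 4 and 6 (change -1.95 to -1.40, adjusted p 0.00243 to 0.0857). Hist1h3f passed in 4 and lost its call without any of WT 8 Gy replicates 1 to 4 or WT 0 Gy replicates 1, 3 and 4 (change -1.94 to -1.31, adjusted p 0.00372 to 0.109). Hist1h1b passed in 3 and lost its call without any of WT 8 Gy replicates 1 to 3 or WT 0 Gy replicates 1 to 4 and 6 (change -1.41 to -0.89, adjusted p 0.0110 to 0.192). All 7 were lower within each batch that held both groups: by -3.16 to -1.31 on the first scan day (1 array at 8 Gy against 3 at 0 Gy), by -3.14 to -0.97 on the second (3 against 2), and by -3.61 to -1.04 and -4.90 to -2.52 on the 2 shared slides (1 against 1 each). The 7 were chosen on these same arrays, so their sign within a batch is not a separate test. The 8 Gy array was the liver-bright replicate 1 on the first scan day and the first of these slides. It was the liver-bright replicate 2 on the other slide. The sham array of the first slide was WT 0 Gy replicate 3, which goes against its label. With slide as a block, Hist1h2bp (-3.08), Hist3h2ba (-2.96) and Hist1h2ab (-2.12) were called.

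The promoters of the 3 genes whose calls held in all of these omissions and with slide as a block, though Hist1h2ab lost its call with normexp and with spike-in scaling, are shown, 250 bases before the gene start 5′ to 3′ from RefSeq (GRCm38.p6), at chr11:58948661-58948910 (plus) for Hist3h2ba, chr13:21787238-21787487 (plus) for Hist1h2bp and chr13:23750838-23751087 (plus) for Hist1h2ab. Capitals mark CCAAT (or ATTGG on the other strand), TATAAA (or TTTATA) and the octamer ATTTGCAT (or ATGCAAAT), the last known from H2B promoters as the site of Oct factors.
Hist3h2ba: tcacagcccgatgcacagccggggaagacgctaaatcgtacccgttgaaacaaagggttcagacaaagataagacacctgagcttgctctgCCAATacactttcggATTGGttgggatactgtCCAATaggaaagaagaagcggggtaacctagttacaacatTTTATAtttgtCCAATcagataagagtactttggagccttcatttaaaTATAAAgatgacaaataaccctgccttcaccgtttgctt
Hist1h2bp: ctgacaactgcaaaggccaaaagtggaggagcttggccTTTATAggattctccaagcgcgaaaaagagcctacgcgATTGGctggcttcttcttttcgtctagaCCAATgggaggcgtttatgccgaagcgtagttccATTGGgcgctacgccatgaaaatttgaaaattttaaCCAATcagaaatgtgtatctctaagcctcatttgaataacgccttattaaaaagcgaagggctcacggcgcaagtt
Hist1h2ab: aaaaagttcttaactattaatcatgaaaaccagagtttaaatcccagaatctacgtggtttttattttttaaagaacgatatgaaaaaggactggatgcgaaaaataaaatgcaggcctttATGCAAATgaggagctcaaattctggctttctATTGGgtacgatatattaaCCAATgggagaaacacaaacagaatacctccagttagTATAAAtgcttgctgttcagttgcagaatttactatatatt
Hist3h2ba and Hist1h2bp each had 4 CCAAT matches and Hist1h2ab had 2 and the octamer. The Hist1h2bp stretch overlaps that of Hist1h2an on the other strand, a gene that was not called and also had 4 CCAAT matches.

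A promoter was found for 35 of the 40 kept histone genes, including 6 of the 7 genes called in WT. CCAAT on either strand was in 28 of the 35 (80%) and in 33.8% of all 32851 promoters, and 24 (68.6%) held it more than once, against 10.1% of all. It was in every H1, H2A and H2B promoter found and in 2 of 8 H4 promoters. TATAAA was in 19 (54.3%), against 12.4% of all. The octamer was in 7 of 12 H2A and 4 of 7 H2B promoters and in none of the H1, H3 or H4 promoters, against 1.60% of all. Some of these promoters overlap on opposite strands: Hist1h2bp with Hist1h2an, Hist1h2aa with Hist1h2ba and Hist1h2ae with Hist1h2bg. As either strand is searched, a match in the shared bases counts for both an H2A and an H2B gene.

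In Atm mice no histone probe was called at 4 Gy against 0 Gy, where 0.321% of all probes were called. At an unadjusted p under 0.05 (limma), 1 was higher and 1 lower, against 3.56% of all probes higher and 8.86% lower. No histone probe had every Atm 4 Gy array below every Atm 0 Gy array, against 1.72% of all probes. The lower one was Hist3h2ba, with a lowest of 0.01, a median of 1.49 and a highest of 2.53 in Atm 4 Gy mice, against 3.09, 2.81, 3.37, 2.45 and 1.99 in Atm 0 Gy mice. The groups overlapped, with a change of -1.30 (SE 0.449, unadjusted p = 0.00677, adjusted p = 0.168). The higher one was Hist1h2al, named as an H2A gene but matched by its symbol to H2af-ps2, a pseudogene name. Its probe lies at chr13:51299277-51299336 (mm9), apart from the other Hist1 probes, and passed the filter only through WT 8 Gy (4 arrays). It was well above background on 3 of 6 Atm 4 Gy and 2 of 5 Atm 0 Gy arrays and not on the others. With those arrays included it averaged -1.21 ± 0.75 in Atm 4 Gy mice and -2.92 ± 1.32 in Atm 0 Gy mice (SD, n = 6 and 5, change 1.70, adjusted p = 0.239).

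Of the other genes called in WT, Hist1h2ab had a lowest of 0.96, a median of 1.77 and a highest of 2.17 in Atm 4 Gy mice, against 1.51, 1.91, 1.91, 1.66 and 1.37 in Atm 0 Gy mice, and its change was 0.01 (adjusted p = 0.994, limma). Hist1h2bp had a lowest of -0.27, a median of 0.73 and a highest of 1.48 in Atm 4 Gy mice, against 1.82, 1.27, 2.19, 0.99 and 1.19 in Atm 0 Gy mice (change -0.83, adjusted p = 0.512). The other 4 differed by -0.86 (Hist1h3f), -0.33 (Hist1h3c), -0.12 (Hist1h2ae) and 0.02 (Hist1h1b). The median over the 45 probes was -0.08, against -0.14 over all probes, with 26 lower, against 60.6% of all probes. Erythroid markers had a median of -1.75 with 1 of 6 called lower.

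In Scid mice 2 of 45 histone probes fell at 3 Gy, against 1.28% of all probes called lower. Hist3h2ba had levels of 0.47, 0.22, 0.29, 1.58 and 1.24 in Scid 3 Gy mice, against 3.59, 3.10, 2.12, 1.28 and 2.97 in Scid 0 Gy mice. The library labelled Scid 0 Gy replicate 4 was the low sham array, and the change was -1.85 (SE 0.469, 3.61-fold lower, limma adjusted p = 0.0394). Hist1h3f had levels of 0.65, 2.08, 1.13, 0.19 and -0.06 in Scid 3 Gy mice, against 2.27, 3.44, 2.51, 2.34 and 3.09 in Scid 0 Gy mice. All irradiated arrays lay below all sham arrays, and the change was -1.93 (SE 0.497, 3.82-fold lower, limma adjusted p = 0.0429).

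Hist1h3c, which shares its first coding bases with Hist1h3f, had levels of 3.47, 4.45, 3.52, 3.22 and 4.08 in Scid 3 Gy mice, against 4.64, 5.61, 4.87, 4.49 and 5.82 in Scid 0 Gy mice. These groups also did not overlap, but the difference of -1.34 did not pass (adjusted p = 0.0819, limma). The 2 H3 probes were the histone probes with groups apart, against 2.38% of all probes apart in that direction. At an unadjusted p under 0.05, 5 histone probes were lower and none higher, against 8.38% of all probes lower and 1.75% higher, the others being Hist1h2ab (-1.02) and Hist1h1b (-0.96). The median over the 45 was -0.11, against -0.00077 over all probes, and 26 were lower, against 50.1% of all probes. But this histone median was above 0 under 6 of 28 other settings, with a highest of 0.20. That highest value was with spike-in scaling, where the median of all probes was 0.31. Erythroid markers had a median of -2.31 with 2 of 6 called lower, and their part in this was not tested.

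The Scid calls lay near the threshold. Leaving out 1 array, Hist3h2ba passed in 3 of 10 omissions and lost its call without Scid 3 Gy replicate 1, 2, 3 or 5 or Scid 0 Gy replicate 1, 2 or 3 (change -2.19 to -1.61, adjusted p 0.0190 to 0.138). Hist1h3f passed only without Scid 3 Gy replicate 2 (change -2.25 to -1.72 over the omissions, adjusted p 0.0183 to 0.167). Without the 3 libraries that go against their labels both were called (Hist3h2ba -2.19, adjusted p = 0.0219, and Hist1h3f -2.03, adjusted p = 0.0482), against 1.05% of all probes. With the liver-bright arrays left out too, Hist1h3c (-1.49, adjusted p = 0.0272) joined them, against 1.61% of all probes. Within batches Hist3h2ba differed by -2.18 on the first scan day (2 arrays at 3 Gy against 4 at 0 Gy), by -2.03 on the second (2 against 1), and by -2.63 and -1.90 on the 2 shared slides (1 against 1 each). Hist1h3f differed by -1.28 and -2.43 on these days and by -2.79 and -0.44 on these slides. Both probes were chosen on these same arrays, so their sign within a batch is not a separate test. With slide as a block neither was called (Hist3h2ba -1.87, adjusted p = 0.143, and Hist1h3f -1.76, adjusted p = 0.156).

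Without irradiation, no histone probe was called between Atm 0 Gy and WT 0 Gy mice (0% of all probes called, none of the 45 at an unadjusted p under 0.05 by limma). The median was -0.20 with 38 lower, against -0.01 and 51.3% lower over all probes. Without the libraries labelled WT 0 Gy replicates 3 and 6 and Scid 0 Gy replicate 4 it was 0.09, against 0.04 over all probes. Between Scid 0 Gy and WT 0 Gy mice 41 of 45 histone probes had a higher mean, against 57.2% of all probes. The histone median was 0.50, against 0.09 over all probes, and none was called (0% of all probes). At an unadjusted p under 0.05 (limma) 4 were higher, against 1.97% of all probes: Hist3h2a by 1.09, Hist2h4 by 0.86, Hist4h4 by 0.86 and Hist2h3b by 0.77, all with an adjusted p of 0.902.

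Without the 3 libraries that go against their labels, all 45 histone probes were higher in Scid 0 Gy mice, against 57.0% of all probes. Their median was 1.04, against 0.19 over all probes. None was called, against 0.278% of all probes called higher, while 29 of 45 were higher at an unadjusted p under 0.05 (limma), against 11.5% of all probes. By type these were 2 of 3 H1, 6 of 15 H2A, 5 of 9 H2B, 5 of 6 H3 and 11 of 12 H4 probes, with medians of 0.95, 0.90, 1.04, 1.13 and 1.22. The largest difference was that of the Hist1h4i probe A_51_P505521, at 1.65 (SE 0.519, adjusted p = 0.0868). Its levels were 7.19, 6.60, 6.43, 5.54 and 6.74 in Scid 0 Gy mice, the fourth being replicate 4, against 5.58, 4.75, 6.07, 6.20, 3.86 and 7.21 in WT 0 Gy mice, the third and sixth being replicates 3 and 6. The left-out arrays were the lowest of the Scid and among the 3 highest of the WT sham values. The smallest differences were those of Hist1h2ab (0.03), Hist2h2be (0.17), Hist3h2ba (0.20) and Hist1h2bp (0.22).

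**Figure D3:**
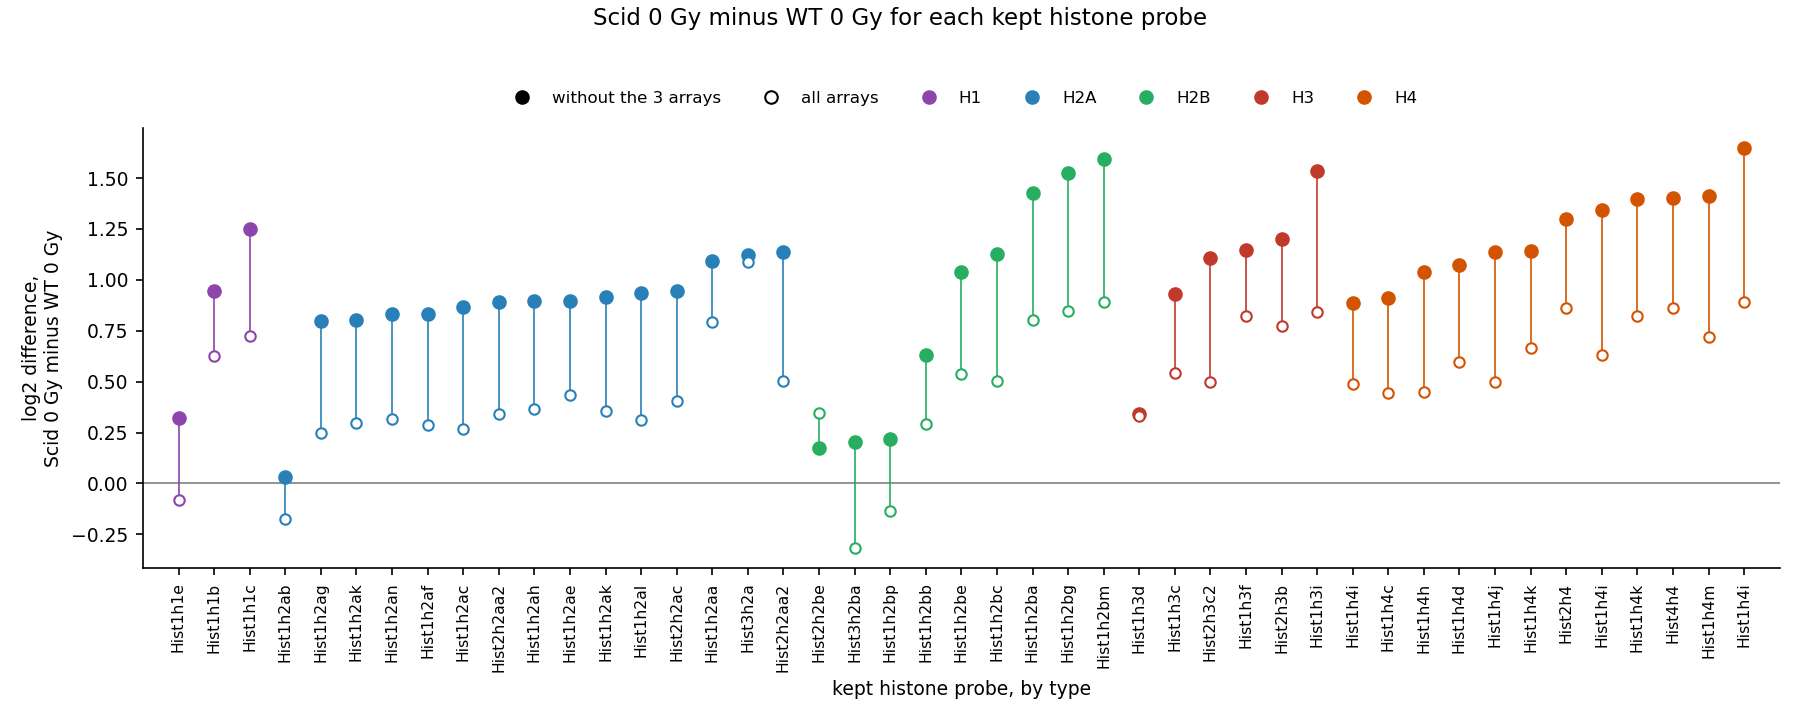
Log2 difference (vertical axis, Scid 0 Gy minus WT 0 Gy) of each kept histone probe (horizontal axis, grouped and coloured by type) with all arrays (open points) and without the 3 libraries whose lymphocyte markers go against their labels (filled points). The filled points run from 0.03 for Hist1h2ab to 1.65 for Hist1h4i and are all above 0.

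This sham difference rested in part on WT 0 Gy replicate 5, a liver-bright array with the lowest mean over the 45 histone probes, 1.93, against 2.76 to 3.92 on the other WT 0 Gy arrays. Without that array alone the median was 0.23. With the 3 libraries and the 4 liver-bright arrays left out together the median was 0.67, against 0.09 over all probes. Of the 45, 41 were higher, against 54.8% of all probes, and 7 were higher at an unadjusted p under 0.05 (limma), against 4.82% of all probes. Those 7 were Hist1h4i (A_51_P505521, 1.23), Hist1h2bm (1.22), Hist1h2bg (1.14), Hist1h3i (1.06), Hist1h2ba (1.06), Hist2h4 (0.99) and Hist1h4k (A_55_P2091147, 0.99), none called. With all arrays, the B cell list had a median of -1.98, the T cell list -0.94 and the platelet list 0.75 in the same comparison, none of their members called, and their part in it was not tested.

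The responses to irradiation were also compared with each other, with genotype and dose changing together. No histone probe was called for Atm minus WT, Scid minus WT or Scid minus Atm, where 0% of all probes were called in each. For Atm minus WT 7 histone probes were higher at an unadjusted p under 0.05 (limma), against 5.23% of all probes. Higher here means a less negative or a more positive change in Atm than in WT. The largest of these differences was that of Hist1h2ab (1.91, unadjusted p = 0.0031, adjusted p = 0.370), followed by Hist1h2bp (1.82), Hist3h2ba (1.64), Hist1h2ae (1.49), Hist1h1e (1.48), Hist1h3c (1.23) and Hist1h1b (1.21). All of these except Hist1h1e were called lower in WT above. The same WT arrays enter this comparison, so the count is not separate from the WT result. Without the 3 libraries that go against their labels 4 of 45 were past an unadjusted p of 0.05, against 3.05% of all probes, and the median of 0.44 became 0.14. For Scid minus WT 1 was higher (Hist1h2bp, 1.65, unadjusted p = 0.0237, adjusted p = 0.659) and none lower, against 3.75% of all probes higher and 3.63% lower. For Scid minus Atm the count was 0, against 2.29% of all probes higher and 2.26% lower. These comparisons share the arrays of a genotype between them.

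Some of the genes that work with the histones were called lower. Of 25 replication and proliferation genes measured 9 fell in WT 8 Gy mice, 1 in Atm 4 Gy and 2 in Scid 3 Gy mice, and none rose. Over all probes 6.25% were called lower in WT, 0.212% in Atm and 1.28% in Scid. Nusap1, a spindle protein gene, fell in all 3 (-4.01, -2.05 and -2.02), Ccna2, the S-phase cyclin A2, fell in WT and Scid (-3.84 and -1.69) and Rrm2, the ribonucleotide reductase subunit, in WT (-1.34). The list's medians of -0.49, -0.47 and -0.80 were lower than those of the histone probes in each genotype. Of 16 histone chaperone genes 3 fell in WT and 1 in Scid: Rbbp4, a subunit of the chromatin assembly factor CAF-1, fell by 2.28 in WT (2.26 ± 0.32 at 8 Gy and 4.54 ± 0.77 at 0 Gy, SD, n = 5 and 6) and by 2.47 in Scid. Asf1b, a chaperone of newly made H3 and H4, fell by 1.28 in WT, and Mcm2 by 1.74. Mcm2 is on both lists and is counted in both the 9 and the 3.

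Of 17 genes of histone message processing and transcription only E2f2, an E2F transcription factor, fell (WT, -4.07, limma adjusted p = 3.26e-06), and none passed in Atm or Scid. Over all probes 6.25% were called lower in WT, and 1 of 17 lies near that share. The E2f2 level was 3.56 ± 0.75 in WT 8 Gy mice and 7.63 ± 0.85 in WT 0 Gy mice (SD, n = 5 and 6). Of 9 histone variant genes outside the clusters, whose messages carry poly(A) tails, 2 fell in WT: H3f3a, which encodes the replacement histone H3.3 (-1.93, limma adjusted p = 0.000478), and Cenpa, the centromeric H3 (-1.18, adjusted p = 0.0174). Cenpa also fell in Scid mice (-1.65, limma adjusted p = 0.00934), 1 of the 9, against 1.28% of all probes called lower. No variant gene passed in Atm mice.

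**Figure D4:**
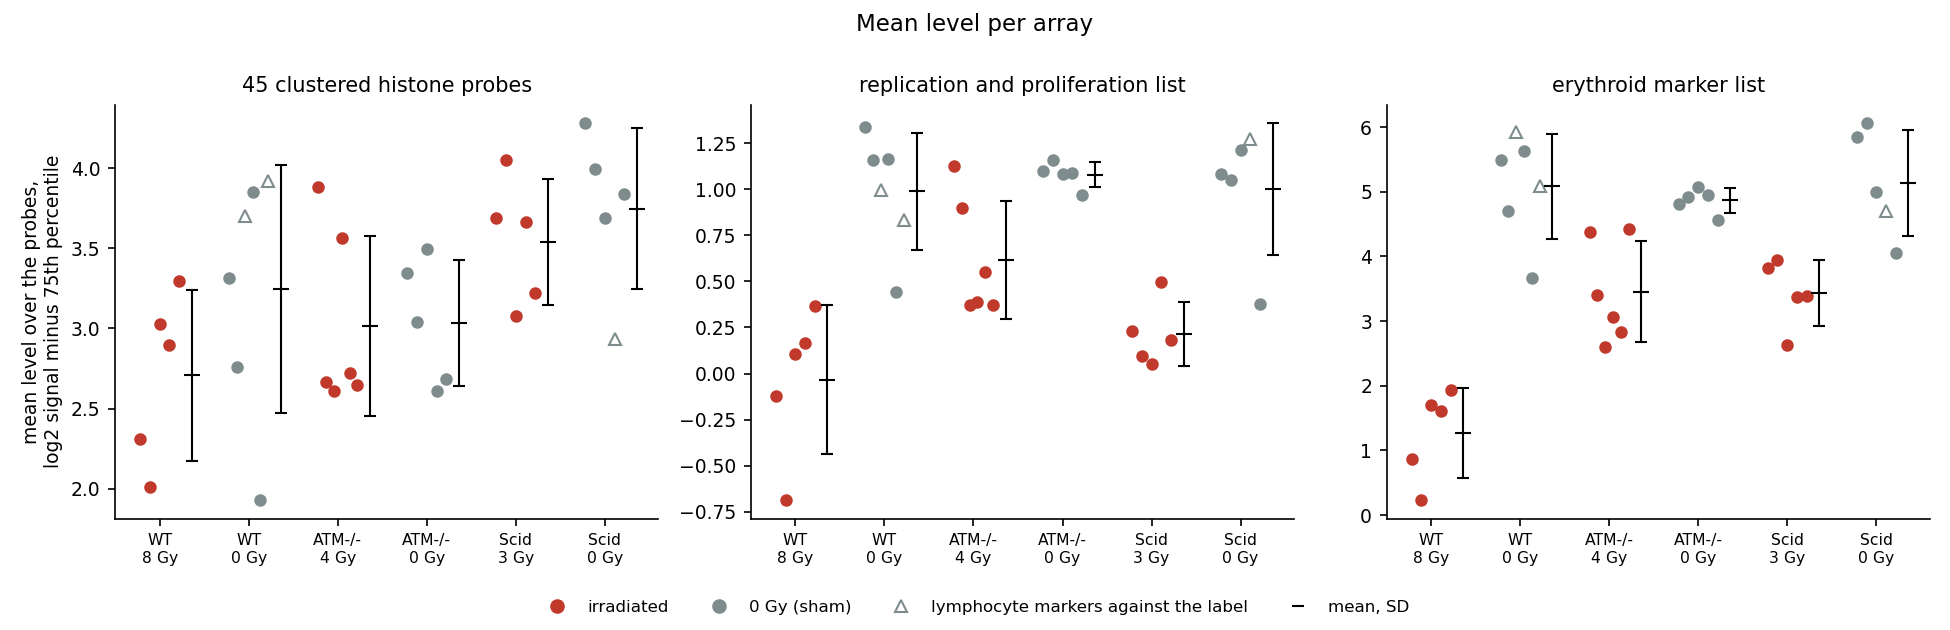
Mean level per array (vertical axis, log2 signal minus the array's 75th percentile) over the kept histone probes and the marker lists named above each panel, in the 6 groups (horizontal axis). Points are mice, marks the mean and SD, and triangles the 3 libraries whose lymphocyte markers go against their labels. The histone means overlap between irradiated and sham arrays (2.01 to 3.30 in WT 8 Gy and 1.93 to 3.92 in WT 0 Gy), while the erythroid means of WT do not (0.24 to 1.93 and 3.67 to 5.92).

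Over the 45 probes the mean level per array was 2.01 to 3.30 in WT 8 Gy and 1.93 to 3.92 in WT 0 Gy mice, 2.61 to 3.88 in Atm 4 Gy and 2.61 to 3.49 in Atm 0 Gy mice, and 3.08 to 4.05 in Scid 3 Gy and 2.94 to 4.28 in Scid 0 Gy mice. Irradiated and sham arrays overlapped in this mean in all 3 genotypes. Of the cell type lists in WT, 1 of 6 B cell genes (Vpreb3, -4.35) and 1 of 6 T cell genes (Cd8a, -2.48) fell, 2 of 5 monocyte genes rose (Cd14, 2.07, and Ms4a6d, 2.38), and no platelet, neutrophil, liver or heart muscle gene was called. Over all probes 6.25% were called lower and 1.14% higher in WT.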

How the data were processed

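Whole blood RNA of 32 mice was hybridised to 1-colour Agilent arrays. Per the file headers, the deposited processed signal is an intensity from which Agilent Feature Extraction had subtracted background and a spatial trend (11.5.1.1 per the headers, 12.0.2 per the submitters' processing notes), in build mm9. The mean spot signal and the median signal of its surround, also deposited intensities, were used for normexp only. The authors' series matrix holds log2 values. On each array 98.1 to 99.3% of these equalled the log2 scanner signal plus 1 constant to within 0.01, and the column medians ran from 5.51 to 6.44, so the scale and direction are known and the centring is not. No column of values was left unmapped (0).

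Control spots and non-uniform outliers (at most 96 spots an array) were left out, spots of a probe were averaged, and each array's log2 processed signal was set to its 75th percentile (17.1 to 232.0 on the intensity scale). This percentile was 126.9 to 232.0 on the WT 8 Gy arrays. On the WT 0 Gy arrays it was 24.1 to 202.6, the highest being replicate 5. Arrays have no depth, and 20.02 to 58.6% of probes per array were well above background. Probes that were so on 4 or more arrays of any group (18368 of 39429) were fitted with limma 3.58.1 in R 4.3.3, all 6 group means in 1 fit, and two-sided p-values were Benjamini-Hochberg adjusted across the kept probes, comparison by comparison. Python 3.11.15 (numpy 2.4.6, pandas 2.3.3, matplotlib 3.10.9) did the rest. The fit was tested on simulated data.

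The members and gene lists were chosen with earlier results of these data known. The text was to name every histone probe called in an irradiation comparison, up to 5 a direction in the others, the 3 kept probes of highest mean level per type, and a set that was always looked up: the H1 genes, Hist1h2bc, Hist1h2be, Hist2h2be, Hist3h2a, Hist4h4, Hist2h2aa1 (no probe of that name) and Hist1h4i. Hist1h2al, Hist1h2bb, Hist1h2bg, Hist1h3i, Hist2h3b and Hist2h3c2, the probes whose sequence is printed and A_55_P2091147 were named after their values were seen. Alternatives were other backgrounds, scalings, filters, blocks, probe summaries and omitted arrays. The replicate numbers did not pair the mice (correlations of same-numbered arrays -0.73 to 0.44). Slides (9) and scan days (4) are those of the file headers. The omissions of the 3 and 4 arrays were chosen after seeing the data.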

Additional observations from a re-analysis of the deposited data

Results flagged for a closer look

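Among 150 groups of 5 or 6 arrays (25 named probes in 6 groups), 3 (2%) held an array far from the others of its group, and chance flags about 1 in 20 groups. The library labelled Scid 0 Gy replicate 4 had a level of 5.98 for Hist1h2bm, where the other Scid 0 Gy arrays had 7.22 to 7.64. The same library had a level of 3.36 for Hist4h4, where the others had 4.07 to 4.29. It is 1 of the 3 libraries whose lymphocyte markers go against their labels. Scid 3 Gy replicate 2 had a level of 4.93 for Hist1h3d, where the other Scid 3 Gy arrays had 3.64 to 3.96.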

How the results depend on the processing

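The array count and the signal over background limit these results. Of the 7 histone probes lower in WT 8 Gy mice, Hist3h2ba and Hist1h2bp were called under all 18 other settings tried, Hist1h2ab under 16, Hist1h3c under 10, Hist1h3f under 6, Hist1h2ae under 6 of 17 and Hist1h1b under 2 of 16. The count of 7 was 2 with normexp, 3 with scaling to the array median, 3 with slide as a block, 3 with the share of probes well above background as a covariate, 3 with only the groups compared, 3 without the 3 libraries whose lymphocyte markers go against their labels, 3 without those and the 4 liver-bright arrays, and 10 with spike-in scaling (2 lower, 8 higher). Leaving out 1 array gave 4 to 7. The count of 0 in Atm mice was 39, all lower, with spike-in scaling, 1 with the series matrix and 1 with the covariate, and 0 to 0 over the omissions of 1 array. The count of 2 in Scid mice was 0 with normexp, quantile normalization, spike-in scaling, no filter, slide or scan day as a block or only the groups compared, 4 with array weights, and 0 to 1 over the omissions. The count of 0 in the other 5 comparisons was 0 to 0 over the omissions, and with spike-in scaling 38 (all lower) for Atm minus WT and 18 (all higher) for Scid minus Atm. The replicate block gave 5 in WT and 2 in Scid, and the numbers do not pair the mice.

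Spike-in scaling moved the median of all probes by 1.28 in WT, -1.60 in Atm and 0.31 in Scid. It alone turned the sign of probes that were called in the main fit or under the other setting. In WT it gave 0.092 for Hist1h1b, called in the main fit but not here (limma adjusted p = 0.844), and 1.26 for Hist2h4, called only here. In Atm it gave -1.44 for Hist1h1b, -1.21 and -1.15 for Hist1h4i (A_51_P505521 and A_55_P2174198), -1.45 for Hist1h2ab, -1.10 for Hist2h4, -1.23 for Hist1h2bc, -1.24 for Hist1h2be and -1.31 for Hist1h3d. None of these was called in Atm in the main fit. The cause of these differences was not tested. The median of the 45 probes changed sign under 5 of 29 alternatives in WT, 9 of 29 in Atm, 6 of 28 in Scid, 3 of 29 for Atm against WT at 0 Gy and 0 of 29 for Scid against WT at 0 Gy (0.16 to 1.04).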
